A study of Homo sapiens with 4 samples.

Results

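The genes of the G1 cyclins, their kinases and the RB family were followed in RNA-seq of a leukemia cell line treated with dBET1. They were chosen by name and function, and found in the count table by their Ensembl identifiers, giving 10 genes of 64252: the D cyclin genes CCND1, CCND2 and CCND3, the kinase genes CDK4 and CDK6, the E cyclin genes CCNE1 and CCNE2, the kinase gene CDK2, and the pocket protein genes RB1 and RBL2. The choice was made with earlier results of these data known. All 10 passed the count filter. The comparison was between 2 libraries of cells kept for 24 h with 8 μM dBET1 and 2 libraries of cells kept for 24 h with DMSO, its solvent, and it asks how these genes change when BET proteins are degraded. dBET1 is a degrader: one end binds BET bromodomains and the other recruits the ubiquitin ligase receptor CRBN. All 4 libraries are labelled NB4, a promyelocytic leukemia line with the PML-RARa fusion, and no other genotype or agent is named. One cell line was used, so the 4 libraries carry no information on other AML lines.

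The library totals were 28019956 to 34685645 counts. The labelled cell type was checked against marker genes. ELANE and CTSG, which mark neutrophil granules, had 0 counts in every library, which allows up to 3 counts each, and MPO had 0 counts in both DMSO libraries and 22 and 10 with dBET1. The 5 granule genes summed to 0.521 to 1.83 CPM (counts scaled to the TMM-normalized library size), while 9 of 9 erythroid genes, GATA1, KLF1 and the fetal globin genes among them, had sums of 4286 and 5115 CPM without the drug, and of 2804 and 2810 CPM after it. The 4 myeloid surface genes CD33, ANPEP, ITGAM and CD14 summed to 11.6 and 13.0 CPM with DMSO against 18.3 and 17.7 CPM after dBET1. CD33 had 323 to 335 counts in every library, while ITGAM had 22 and 9 counts under DMSO and 170 and 152 under dBET1 (log2 fold change 3.39, edgeR quasi-likelihood adjusted p = 0.000188) and CD14 had 18 and 14 against 27 and 48 counts (1.23, adjusted p = 0.0444). The defining granule markers of a promyelocytic line were therefore at or near 0, and the cells are called here by their label only. The part of the lower erythroid sum and of the higher ITGAM and CD14 in the results below was not tested.

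In proliferating cells the D cyclins are made in response to growth signals and switch on CDK4 and CDK6, which place the first phosphates on RB. The E cyclins then switch on CDK2, which completes that phosphorylation. The pocket proteins RB, p107 and p130, the products of RB1, RBL1 and RBL2, hold E2F transcription factors and repress their targets until they are phosphorylated. In blood cells CDK6 and cyclin D3 are known as prominent members of this machinery, and p130 is known for its role in quiescent cells.

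After dBET1, 6 of the 10 genes were lower (CCND1, CCND3, CDK4, CDK6, CCNE1 and CDK2), 3 were higher (CCND2, RB1 and RBL2), and CCNE2 was not called. A gene was called when the Benjamini-Hochberg adjusted p of edgeR's quasi-likelihood test, taken over 17971 genes, was under 0.05. By this rule 27.6% of all genes tested were lower and 28.0% were higher, 55.6% in either direction, so the share of higher members was near that of all genes. When a log2 fold change beyond 1 in either direction was also asked for, 1 member was lower, against 8.54% of all genes, and 0 were higher, against 16.9%. The median log2 fold change of the members was -0.38, beside 0.048 over all genes tested. That background also takes in genes with low counts and is not matched for abundance. Genes with at least 100 counts in every library, as all members had, were split into 5 groups by length. Their medians were negative in each group, from -0.35 to -0.0066. The shares called were not computed for such genes alone. The DMSO and dBET1 libraries did not overlap in CPM for 9 of the 10 genes, but 79.3% of all genes tested did not overlap either. In bulk RNA, fewer cells of one kind and less RNA per cell cannot be told apart. The labels number the libraries of a group 1 and 2 without saying whether they came from separate cultures, so the p-values measure the spread between these libraries, which may be technical.

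**Figure D1:**
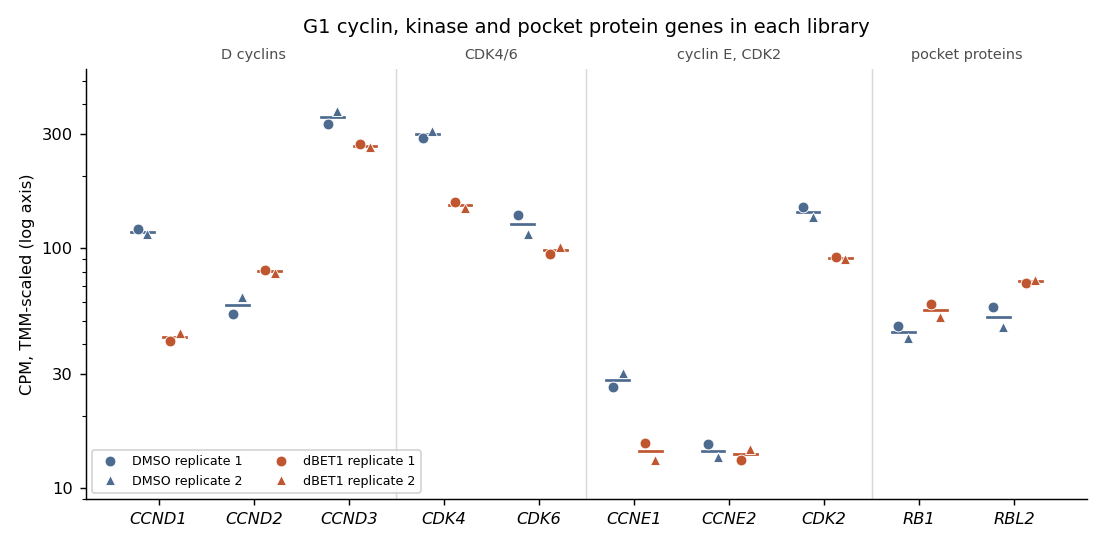
Level of each of the 10 genes in each library, in CPM scaled with TMM factors on a log axis. Blue symbols are DMSO and orange symbols dBET1, circles are replicate 1 and triangles replicate 2, and short lines are group means. CCND1, CDK4 and CCNE1 show the widest gaps downwards, CCND2 and RBL2 lie higher with dBET1, and the CCNE2 libraries of both groups overlap between 13.1 and 15.2 CPM.

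The D cyclin genes moved apart. CCND1 (chromosome 11, 69641156 to 69654474, forward strand; these and the following gene coordinates are those of GENCODE 44 on hg38) had 120.4 and 115 CPM in the DMSO libraries and 41.1 and 44.3 CPM in the dBET1 libraries. Both dBET1 libraries lay far below both DMSO libraries. Mean CPM were 118 ± 3.87 with DMSO and 42.7 ± 2.24 with dBET1 (SD, n = 2 per group), and the log2 fold change was -1.46 (SE 0.0861, edgeR quasi-likelihood adjusted p = 1.55e-05). CCND1, the gene of cyclin D1, was the only member past the limit of 1 in the comparison as designed, and its value ranked 626 from the lowest of 17971.

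CCND2 (chromosome 12, 4269771 to 4305353, forward strand), the gene of cyclin D2, had 53.2 and 62.6 CPM with DMSO and 81.6 and 79.0 CPM with dBET1. The groups did not overlap, and the gap between them was wider than the difference within the DMSO pair. CCND2 rose by 0.47 on the log2 scale, with a 95% confidence interval from 0.24 to 0.71 (edgeR quasi-likelihood adjusted p = 0.00506). CCND3 (chromosome 6, 41934934 to 42050357, reverse strand), the gene of cyclin D3, had 331 and 376 CPM with DMSO and 273 and 264 CPM with dBET1. Both dBET1 libraries were lower than both DMSO libraries, which differed from each other by 0.18 on the log2 scale. CCND3 fell by 0.40 (SE 0.0821, edgeR quasi-likelihood adjusted p = 0.00452), and with total counts only the value was -0.19 with an adjusted p of 0.0714, so the call of CCND3 rests on the normalization.

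Set on a scale per length, the D cyclin transcripts also shifted in make-up. TPM, a level per length, were computed from the gene counts and the merged exon length of each gene, so that levels of different genes can be compared. They were scaled to the same total in each library without the TMM factors, so differences between groups in TPM do not equal the log2 fold changes. CCNE2, for one, had mean TPM of 9.86 with DMSO and 10.3 with dBET1, but a log2 fold change of -0.051. The summed TPM of the D cyclin genes was 279 and 284 with DMSO and 213 and 215 with dBET1. CCND3 made up the largest share in every library, 64.3% and 67.1% with DMSO and 71.5% and 70.5% with dBET1. CCND1 accounted for 28.3% and 24.8% of the DMSO sums and for 13.0% and 14.3% of the dBET1 sums. The share of CCND2 was 7.45% and 8.06% with DMSO and 15.4% and 15.2% with dBET1. The ratio of CCND1 to CCND2 therefore went from 3.44 ± 0.505 to 0.893 ± 0.0672 (SD, n = 2 in each group), and CCND2 exceeded CCND1 in both dBET1 libraries. An exact permutation test of 2 libraries against 2 cannot give a two-sided p below 0.333, so these shares are given as values. They depend on the length used: with the longest annotated transcript the share of CCND1 was 15.2% with DMSO and 7.53% with dBET1 (group means), and that of CCND3 80.3% and 83.7%.

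**Figure D2:**
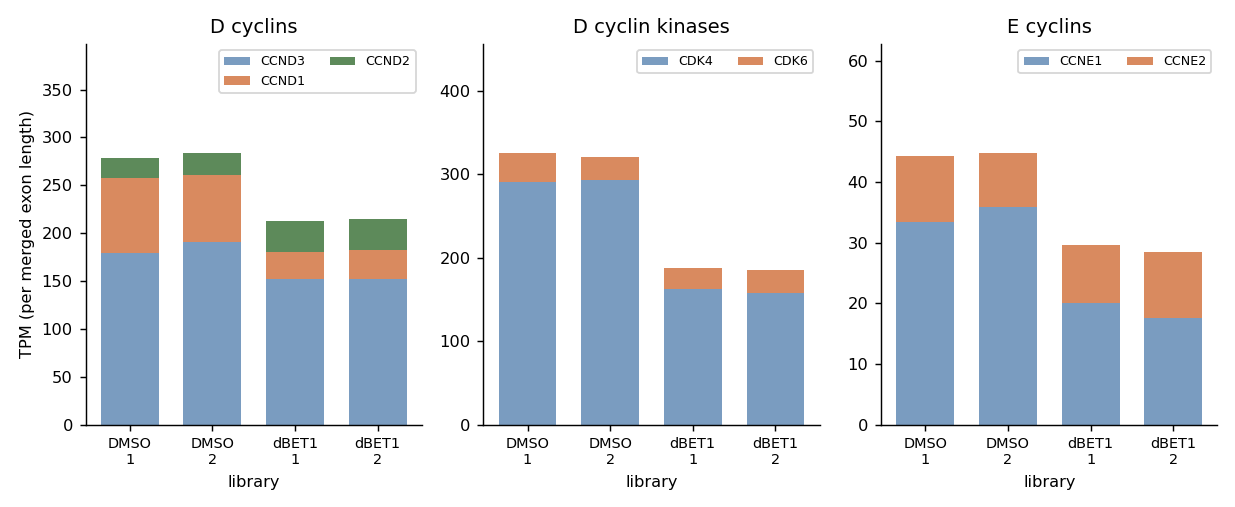
Stacked TPM per merged exon length of the D cyclin genes, of CDK4 and CDK6, and of the E cyclin genes in each of the 4 libraries, each panel with its own axis starting at 0. The D cyclin sum drops from 279 and 284 to 213 and 215 TPM while its CCND2 part grows, and CDK4 makes up most of the kinase sum in every library.

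CDK4 had the largest change of the 3 kinase genes in the set. The bases before a RefSeq start of CDK4 are shown with those of CCNE1, which also fell, and of RBL2, which rose. Those of CCND3 and CDK6, which fell too, are not shown. The sequences are from RefSeq's promoter windows (GRCh38.p14, 250 bases before and 50 after a start), which held 6 of the 10 genes with 10 windows. CCND1, CCND2, CCNE2 and CDK2 had no entry. The 1 window of RB1 lies at an internal start (chr13:48476200-48476499) and is not printed. The printed CDK4 and RBL2 stretches also lie inside the gene coordinates given here, downstream of the outermost annotated start. Only the CCNE1 stretch lies before the first base of its gene. Only stretches outside annotated exons are printed, except the site of a CDK4 E-box in an annotated exon, given as 30 bases. Capitals mark matches, on either strand, of CACGTG (E-box, the core bound by MYC and related factors), GGGCGG (GC box), CCAAT and TCCCGC (an E2F core, which can overlap a GC box).
CDK4, chr12:57752448-57752560, reverse strand: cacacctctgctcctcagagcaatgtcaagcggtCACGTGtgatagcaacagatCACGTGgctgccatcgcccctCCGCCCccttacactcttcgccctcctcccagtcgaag
CDK4, chr12:57752394-57752423, reverse strand: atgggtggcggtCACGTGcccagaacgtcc
CCNE1, chr19:29811741-29811990, forward strand: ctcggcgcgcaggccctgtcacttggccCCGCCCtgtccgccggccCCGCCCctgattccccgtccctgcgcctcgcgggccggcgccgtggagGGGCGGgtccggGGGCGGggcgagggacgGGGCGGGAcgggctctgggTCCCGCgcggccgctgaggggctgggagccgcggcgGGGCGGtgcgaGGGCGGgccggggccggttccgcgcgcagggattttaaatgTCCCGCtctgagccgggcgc
RBL2, chr16:53434277-53434417, forward strand: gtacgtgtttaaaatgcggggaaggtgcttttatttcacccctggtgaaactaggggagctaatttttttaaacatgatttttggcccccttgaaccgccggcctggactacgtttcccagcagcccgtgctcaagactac

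The CDK4 window held 3 E-boxes, beginning 216, 196 and 101 bases before the start. At least 1 E-box was found in 7.26% of 35116 promoter windows of the same length, and 3 or more in 0.0940%. The limit of 3 was taken from the CDK4 window itself. Shares with several matches were not computed for the other motifs, so the motifs cannot be ranked by rarity. The CCNE1 window held 7 GC boxes and 3 E2F cores, of which 1 overlapped a GC box. A GC box was found in 45.0% of all windows, an E2F core in 26.9% and CCAAT in 34.6%. The printed RBL2 stretch held none of these motifs, and the rest of that window held 2 GC boxes. The other RBL2 window held CCAAT. The windows of CCND3 held GC boxes, CCAAT and an E2F core, and those of CDK6 held GC boxes and an E2F core. An E-box was also found in 1 of 2 CDK6 windows and in none of those of CCND3, CCNE1, RB1 and RBL2. These matches describe letters in a window and were not tested against the expression changes.

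CDK4 (chromosome 12, 57747727 to 57756013, reverse strand), the gene of a kinase that D cyclins activate, had 288 and 310.2 CPM with DMSO and 157 and 148 CPM with dBET1. The groups lay far apart beside the spread within each pair. Mean CPM were 299 ± 15.6 and 152 ± 6.27 (SD, n = 2 per group), and CDK4 fell by 0.98 on the log2 scale, to 0.508 of the DMSO level (SE 0.0769, edgeR quasi-likelihood adjusted p = 4.49e-05). This was short of the limit of 1, and it passed that limit without DMSO replicate 1, at -1.06, without dBET1 replicate 1, at -1.02, and with no filter on low counts, at -1.03. Of the 3094 bases of merged CDK4 exons, 1369 are shared with TSPAN31 on the opposite strand, and the strand setting of the counting is not given in the sources used here. TSPAN31 went the other way, at 14.4 and 15.1 CPM without and 32.9 and 31.0 CPM after the drug (log2 fold change 1.11, edgeR quasi-likelihood adjusted p = 0.000153), and its counts were fewer than those of CDK4 in every library.

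CDK6 (chromosome 7, 92604921 to 92836573, reverse strand), the gene of the other D cyclin kinase, had 138 and 115 CPM with DMSO and 94.9 and 102 CPM with dBET1. The groups did not overlap, but the DMSO libraries differed from each other by 0.27 on the log2 scale. CDK6 fell by 0.36 (SE 0.103, edgeR quasi-likelihood adjusted p = 0.0184). This call was lost with total counts only (-0.16, adjusted p = 0.261), with no filter on low counts (adjusted p = 0.0604), without dBET1 replicate 1 (adjusted p = 0.138) and without dBET1 replicate 2 (adjusted p = 0.0550), all by edgeR. In TPM, CDK4 exceeded CDK6 by 8.26 and 10.7 times in the DMSO libraries and by 6.53 and 5.75 times in the dBET1 libraries. With the longest transcript as length these ratios were 13.1 and 16.9, and 10.3 and 9.09. Their summed TPM was 326 and 321 with DMSO and 187 and 185 with dBET1.

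Of the E cyclin genes, CCNE1 was called and CCNE2 was not, and the difference between them was not tested. CCNE1 (chromosome 19, 29811991 to 29824312, forward strand), the gene of cyclin E1, had 26.4 and 30.2 CPM with DMSO against 15.4 and 13.0 CPM after dBET1 (398 to 860 counts). Both dBET1 libraries lay well below both DMSO libraries. CCNE1 fell by 0.99 (SE 0.140, edgeR quasi-likelihood adjusted p = 0.000708), with a 95% confidence interval from -1.32 to -0.67, and it passed the limit of 1 without DMSO replicate 1, at -1.11, without dBET1 replicate 1, at -1.12, with DESeq2, at -1.01, with its size factors in edgeR, at -1.01, and with no filter on low counts, at -1.05. CCNE2 (chromosome 8, 94879770 to 94896678, reverse strand), the gene of cyclin E2, had 15.2 and 13.4 CPM with DMSO against 13.1 and 14.6 CPM after dBET1 (377 to 497 counts). The groups overlapped. The log2 fold change was -0.051, with a 95% confidence interval from -0.40 to 0.29 (edgeR quasi-likelihood adjusted p = 0.793). A change of the size seen in CCNE1 lies outside that interval, but these counts may include reads of another gene, as described next.

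CCNE2 shares 1629 of its 4397 exon bases with INTS8 on the opposite strand, and INTS8, with 2221 to 3028 counts a library, outnumbered it in every library. INTS8 itself had a log2 fold change of 0.0022 (edgeR quasi-likelihood adjusted p = 0.987). The CCNE2 counts are therefore uncertain, and their interval cannot decide whether CCNE2 alone fell as far as CCNE1. The share of INTS8 reads in them was not tested. The ratio of CCNE1 to CCNE2 in TPM was 3.56 ± 0.659 with DMSO and 1.85 ± 0.355 with dBET1 (SD, n = 2 per group), and the libraries of the groups did not overlap. CDK2 (chromosome 12, 55966781 to 55972789, forward strand), the gene of the kinase that E cyclins activate, had 149 and 136 CPM with DMSO and 92.4 and 90.6 CPM with dBET1. The dBET1 libraries were close to each other and below both DMSO libraries. CDK2 fell by 0.64 (SE 0.0812, edgeR quasi-likelihood adjusted p = 0.000425), with values from -0.73 to -0.43 over 13 alternative settings, each of which kept the call.

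Both pocket protein genes of the set, RBL2 and RB1, were called higher after dBET1, with the RB1 call lost in several settings. RBL2 (chromosome 16, 53433977 to 53491648, forward strand), the gene of p130, had 56.8 and 47.1 CPM with DMSO and 72.1 and 73.6 CPM with dBET1. Both dBET1 libraries lay above both DMSO libraries, which differed from each other by 0.27 on the log2 scale. RBL2 rose by 0.49 (SE 0.107, edgeR quasi-likelihood adjusted p = 0.00581), and the call was lost with no filter on low counts, at an adjusted p of 0.0546. RB1 (chromosome 13, 48303744 to 48599436, forward strand), the gene of RB itself, had 47.4 and 42.2 CPM with DMSO and 58.9 and 51.8 CPM with dBET1. The groups did not overlap, but the gap between them was narrower than the spread within either pair. RB1 rose by 0.30 (SE 0.106, edgeR quasi-likelihood adjusted p = 0.0405).

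The RB1 call was lost in more settings than that of any other member. It was missing without DMSO replicate 2 (0.19, adjusted p = 0.115), without dBET1 replicate 1 (0.20, adjusted p = 0.354) and without dBET1 replicate 2 (0.38, adjusted p = 0.0843) by edgeR. It was also lost with DESeq2 (adjusted p = 0.0616), with no filter on low counts (adjusted p = 0.183) and with the length trend described below removed (adjusted p = 0.0527). RBL1, the gene of the third pocket protein p107 and not a member of the set, had a log2 fold change of -0.17 (edgeR quasi-likelihood adjusted p = 0.273). Exons of RBL2 and CCND1 also overlap opposite-strand genes, AKTIP by 609 bases and LTO1 by 497 bases, and both genes had fewer counts than the member in every dBET1 and DMSO library. In TPM, RBL2 made up 37.8% and 36.3% of the sum of RB1, RBL1 and RBL2 with DMSO and 41.1% and 44.5% with dBET1. The D cyclin sum was 6.23 and 7.86 times the sum of RB1 and RBL2 with DMSO and 3.67 and 3.80 times with dBET1. With the longest transcript it was 9.23 and 11.9 times, and 5.71 and 5.88 times.

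**Figure D3:**
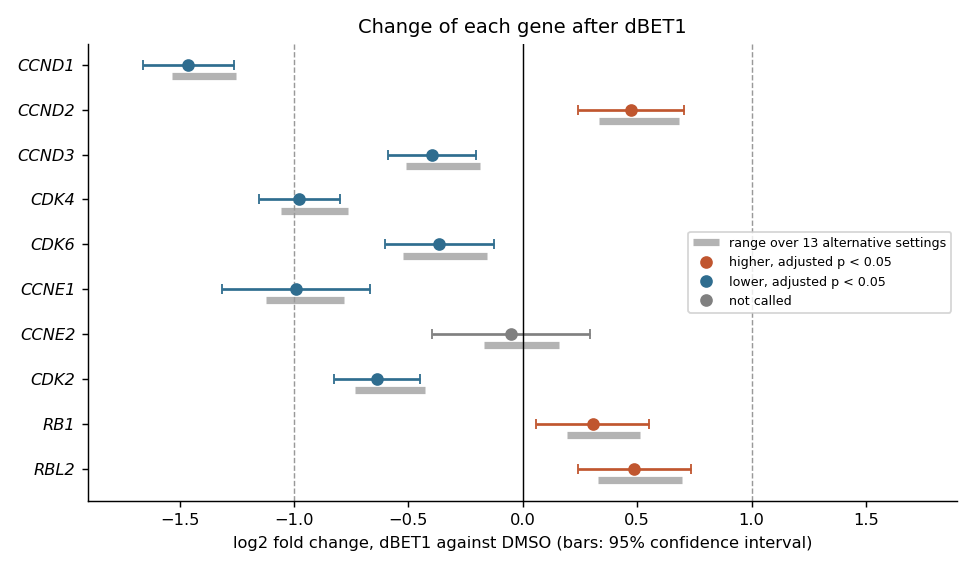
Log2 fold change of each gene, dBET1 against DMSO, from edgeR, with 95% confidence intervals as bars, and in grey the range over 13 alternative settings. Blue points were called lower, orange points higher and the grey point was not called, and dashed lines mark 1 and -1. CCND1 lies wholly below -1, CDK4 and CCNE1 lie beside it, and the CCNE2 interval spans 0.

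Ordered by TPM, the genes of the DMSO libraries ran from CDK4 at 292 ± 1.98 and CCND3 at 185 ± 7.99 over CDK2 at 111 ± 12.3 and CCND1 at 74.7 ± 5.85 to CCNE2 at 9.86 ± 1.33 (SD, n = 2). Between CCND1 and CCNE2 stood CCNE1, CDK6, CCND2, RB1 and RBL2, from 34.6 down to 19.4 TPM. In that stretch CCNE1 overlapped CDK6, CCND2 overlapped RB1 and RB1 overlapped RBL2, so these neighbours did not differ beyond their spread. With dBET1 the order began with CDK4 at 160.2 ± 3.32, CCND3 at 152 ± 0.391 and CDK2 at 76.7 ± 0.533 TPM (SD, n = 2). CCND2 followed at 32.8 ± 0.0749 TPM, above RBL2, CCND1, RB1 and CDK6, of which each overlapped the next between 30.8 and 24.9 TPM. CCNE1 and CCNE2 came last, at 18.8 ± 1.82 and 10.3 ± 0.988 TPM (SD, n = 2). The place of CCND3 depends on its length, 5761 bases of merged exons against 2394 in its longest transcript, and with the latter it stood above CDK4 in the dBET1 libraries, at 284 against 206 TPM.

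Merged exon length also ran along a difference between libraries. Genes with at least 100 counts in every library were split by length into 5 groups of near equal size. The median log2 ratio of DMSO replicate 1 to DMSO replicate 2 was -0.11 in the group of genes with the shortest exons (up to 2861 bases) and 0.13 in that with the longest (9009 bases and more). For the dBET1 pair these medians lay between -0.0099 and 0.025 in all 5 length groups. The median log2 fold change between the conditions went from -0.35 in the shortest to -0.0066 in the longest group. Among the members, CCNE1 with 2461 and CDK4 with 3094 bases were the shortest, and CCND2 with 7988, RBL2 with 8110 and CDK6 with 12239 bases the longest. With a smooth trend of each library with length removed, a setting added after the data were seen, the log2 fold changes were -0.83 for CDK4, -0.79 for CCNE1, -0.51 for CDK6, 0.39 for CCND2 and 0.40 for RBL2. CCND1 stayed at -1.43. RB1, at 0.26, was the only member to lose its call in this setting.

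**Figure D4:**
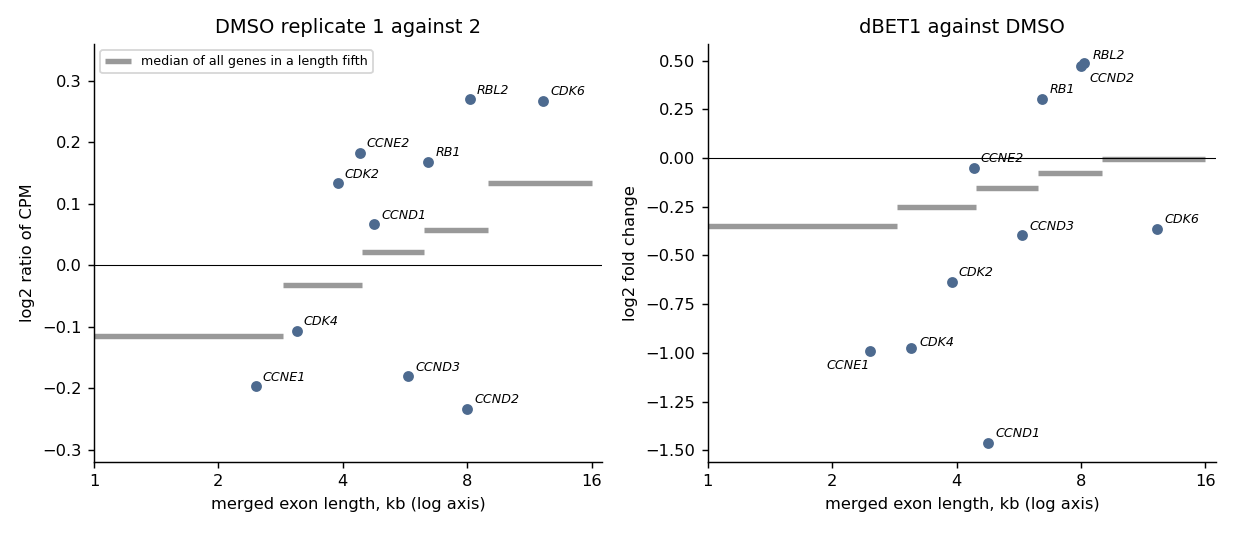
Left, log2 ratio of CPM between the DMSO replicates, and right, log2 fold change of dBET1 against DMSO, both against merged exon length in kb on a log axis, for the 10 genes (points). Grey bars are medians over all genes with at least 100 counts in every library in 5 groups of length, drawn from 1 to 16 kb. The medians climb from -0.11 to 0.13 on the left and from -0.35 to -0.0066 on the right, and on the right CCND1, CDK4 and CCNE1 sit well below the bar of their length.

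Beyond the members, 86 genes of the G1 pathway were listed by function, with earlier results of these data known, and 82 could be tested. Of these, 48 were lower (58.5%) and 7 were higher (8.54%), beside 27.6% and 28.0% of all genes, and their median log2 fold change was -0.49. The shares of all genes include genes with low counts, so this background is not matched for abundance. Genes with at least 100 counts in every library had negative medians in each length group. Past the log2 limit of 1, 13 of the 82 genes were lower and 2 were higher, beside 8.54% and 16.9% of all genes. With total counts only, 14 of the 82 were higher and 39 were lower. The shares of all genes were not computed in that setting, in which their median was 0.26. The S phase genes that E2F factors drive had the most calls, with 14 of 17 lower, 0 higher and a median of -0.62. MCM3 and MCM7, of the replicative helicase, had log2 fold changes of -1.26 and -1.11, and CDC45, which joins that helicase, of -1.21. Among later cyclins and kinases, 3 of 6 tested genes were lower and 0 were higher. The higher count was 2 with total counts only and with at least 10 counts in every library. It was 1 with counts divided by 2 and with the length trend removed. The lower count was 2 with DESeq2, with total counts only and with the length trend removed. CCNA2, the gene of cyclin A2, had a log2 fold change of -0.78, CCNB1, that of cyclin B1, of -0.44, and CDK3, with 35 and 59 counts with DMSO and 13 and 23 with dBET1, of -1.40. The CDK3 call was lost in several settings, with an adjusted p of 0.0814 by DESeq2 and, by edgeR, of 0.202 without DMSO replicate 2 (-0.88) and 0.167 without dBET1 replicate 1 (-1.07).

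Of the E2F and DP genes, 5 of 10 were lower and 1 was higher. E2F2, an activator, fell by 1.17 on the log2 scale, and E2F4 and E2F8, known as repressors, fell by 1.07 and 1.10. E2F7, a repressor too, rose by 0.47, a call lost without DMSO replicate 2, dBET1 replicate 1 or dBET1 replicate 2 (0.26, 0.42 and 0.51, adjusted p = 0.0613, 0.122 and 0.0593 by edgeR) and with no filter on low counts (adjusted p = 0.137). Of 7 CDK inhibitor genes, 5 were tested, of which 1 was higher and 1 was lower, with a median of -0.10. CDKN1A, the gene of p21, had 1.35 and 1.46 CPM with DMSO and 12.3 and 13.8 CPM after dBET1, and rose by 3.21 on the log2 scale. CDKN2A and CDKN2B, whose products inhibit CDK4 and CDK6, had 0 counts in every library, which allows up to 3 counts each. The other tested inhibitor genes were expressed and not called. CDKN2C, with 1970 to 2267 counts a library, had a log2 fold change of -0.11, CDKN2D of -0.10 and CDKN1B of 0.11. CDKN1C was lower at -0.86 (edgeR quasi-likelihood adjusted p = 0.0259). That call was lost without DMSO replicate 2, dBET1 replicate 1 or dBET1 replicate 2 (edgeR adjusted p = 0.0760, 0.0973 and 0.0753) and in other settings.

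Among genes that activate or restrain CDKs, 8 of 12 were lower and 2 were higher, with a median of -0.56. CDC25A, the phosphatase that removes inhibitory phosphates from CDK2, fell by 1.23, CDC37, the chaperone partner that loads CDK4 onto HSP90, by 1.22, and PKMYT1, an inhibitory kinase of CDK1, by 0.93. CDC25B and CDC25C, phosphatases known for their role at mitosis, had log2 fold changes of 0.71 and 0.95. Of 12 cyclin turnover genes 7 were lower and 1 was higher. The higher count was 2 with total counts only, with at least 10 counts in every library and with counts divided by 2. SKP2, the F-box protein that targets p27, fell by 1.16, and the ligase subunits RBX1 and DDB1 by 1.13 and 0.83. AMBRA1, the substrate receptor for D cyclins, was the higher one, at 1.15.

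Of the genes of the MuvB complex and its partners, 4 of 9 were lower and 1 was higher, with a median of -0.17. The lower count was 2 without dBET1 replicate 1, without dBET1 replicate 2 and with total counts only, and the higher count was 0 without dBET1 replicate 2. MYBL2, which joins MuvB in proliferating cells, fell by 0.99 and RBBP4 by 0.54. LIN52 at -0.55 and LIN37 at 0.77 had calls that were lost without dBET1 replicate 2 (adjusted p = 0.157 and 0.0677 by edgeR), and LIN37 was at 0.49 without DMSO replicate 1. The LIN52 call was also lost without DMSO replicate 1 and without dBET1 replicate 1 (adjusted p = 0.104 and 0.0877 by edgeR). Of 11 genes of RB partners 6 were lower and 1 was higher, with a median of -0.41. RBBP7, a histone-binding subunit, fell by 0.92, and PPP1CC and PPP1CA, catalytic subunits of the phosphatase that acts on RB, by 0.79 and 0.56. KDM5A, a histone demethylase that binds RB, had a log2 fold change of 0.74.

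**Figure D5:**
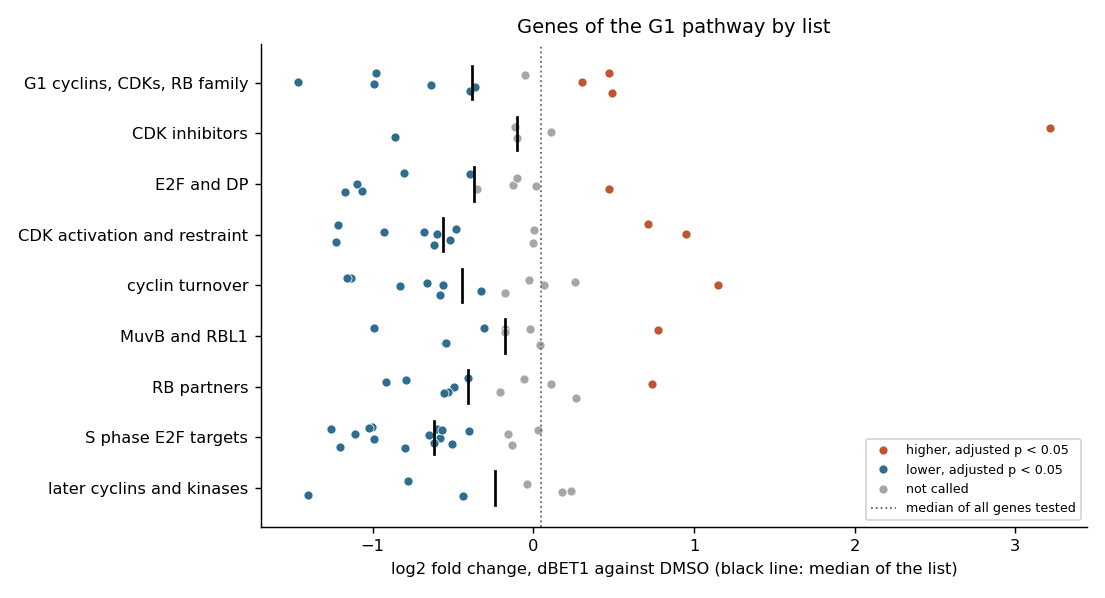
Log2 fold change, dBET1 against DMSO, of each tested gene in the 10-gene set and in 8 lists of other G1 pathway genes, with the vertical position inside a row spread at random to separate points. Blue points were called lower, orange points higher and grey points not called, black lines are list medians and the dotted line is the median of all genes tested, 0.048. List medians lie between -0.62 and -0.10, left of the dotted line, and CDKN1A stands alone at 3.21. The dotted line is not matched to the lists for abundance.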

How the data were processed

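Labels give total RNA and Illumina's TruSeq RNA kit. TRIzol is named in the labels and a column kit in the methods. The authors aligned paired-end reads to hg38 with HISAT2 2.2.0 (also in the submitters' processing notes), ran StringTie and deposited whole-number counts per Ensembl gene, not normalized. How abundances became counts is not given in the sources used here. Columns headed NC were taken as DMSO, the other labelled group. Of 64252 identifiers, 56105 had a GENCODE 44 entry.

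Counts were filtered with filterByExpr, TMM-normalized and compared by edgeR 4.0.16's quasi-likelihood test (limma 3.58.1, R 4.3.3) with group as the only term, p-values being adjusted by Benjamini-Hochberg across 17971 genes. Standard errors are log2 fold changes divided by the square root of F. Common biological variation was 0.123. Replicates of a group differed beyond counting error (chi-square per degree of freedom 23.6 for DMSO and 8.14 for dBET1), so none was a copy. SDs rest on 2 values. The steps were tested on simulated data with 200 changed genes and the common variation for every gene. There 90.8% of 2-fold and 100% of 4-fold changes were recovered. In the real data 55.6% of genes were called, so that test does not cover normalization under a broad shift.

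Members and lists were chosen with earlier results of these data known. Named genes are the members, up to 3 called genes per direction in each list, and overlapping neighbours. RBL1, the other CDK inhibitor genes and marker genes are named besides. No list was tested as a set. Alternatives were DESeq2 1.42.0, its size factors, total counts, other filters, the replicate block, each library left out, counts divided by 2 (in case both reads of a pair were counted) and, added later, length. Tables were made with Python 3.11.15.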

Additional observations from a re-analysis of the deposited data

How the results depend on the processing

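Under 13 alternatives to each log2 fold change, CCND1, CCND2, CDK4, CCNE1 and CDK2 kept direction and an adjusted p under 0.05. CCND3, CDK6, RB1 and RBL2 kept their direction but not every call. CCND3 lost its call with total counts only and RBL2 with no filter on low counts, while CDK6 and RB1 lost theirs in more settings. CCNE2, never called, changed sign with total counts only (0.16), at least 10 counts in every library (0.020), without DMSO replicate 1 (0.018) and without dBET1 replicate 1 (0.019), and ran from -0.17 to 0.019 over the fits without 1 library. The number of members lower past the limit of 1 was 2 with DESeq2 or its size factors and 3 with no filter on low counts, which left 1 member higher. Across the fits that left out 1 library each, in which the lone library is assumed to vary like the others, members higher numbered 2 to 3, members lower 5 to 6 and members lower past the limit 1 to 3. With total counts only, which raised the median of all genes by 0.21, 14 genes of the other lists were higher, against 7. In that setting 3 were lower past the limit, against 13, and the shares of all genes were not computed. With no filter the median was higher by 0.205, but it took in more genes. Each member's log2 fold change was lower there, CCND1 at -1.52 against -1.46 and RB1 at 0.25 against 0.30. At an adjusted p under 0.01, 2 members were higher and 5 lower. This setting is counted among the 13 but reuses the main fit with a stricter limit, so it could not change a fold change. The replicate block gave 3 members higher and 6 lower, as without it. Same-numbered libraries did not deviate together (r = -0.00052 over genes), so the numbers were not used as pairs. With 2 libraries in each group, no single library could be tested as an outlier, and intervals for shares per length were not computed.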
